A study of Homo sapiens with 24 samples.

Results

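The expression of 35 aminoacyl-tRNA synthetase genes, 19 cytosolic and 16 mitochondrial, was followed in ovarian cancer cells exposed to a nucleoside prodrug. The genes were chosen by name, with earlier results of these data known, from the 63299 genes in the table. All 35 were among the 20240 genes with counts high enough to be tested.

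Aminoacyl-tRNA synthetases charge each transfer RNA (tRNA) with its amino acid and so supply the ribosome with substrate. Human cells keep one set in the cytosol, where several members sit together in a multi-synthetase complex, and a second set, encoded by nuclear genes with the suffix 2 in their names, that serves the ribosomes inside mitochondria. FARSA and FARSB, the subunits of the cytosolic phenylalanine enzyme, act as a pair, and GARS1 and KARS1 supply both compartments. Many cytosolic synthetase genes are known targets of ATF4, the transcription factor of the amino acid and integrated stress responses.

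RNA was sequenced from a pair of human ovarian cancer cell lines, the platinum-sensitive A2780 and its platinum-resistant derivative A2780cis, the latter kept under 1 µM cisplatin at intervals to hold its resistance. Each line was either left untreated or exposed to 1 µM 5-FdU-ECyd for 6 h or 12 h, and each of the 8 combinations of line, treatment and time had 3 libraries, 24 in all. 5-FdU-ECyd is a duplex prodrug that joins 2'-deoxy-5-fluorouridine, an inhibitor of thymidylate synthesis, to 3'-C-ethynylcytidine, a ribonucleoside that blocks RNA synthesis. The untreated groups received no agent and were harvested at the same times. There is 1 sensitive and 1 resistant line, so a difference between A2780cis and A2780 cannot be told apart from the history of the one derived line. The libraries of a group are described as biological triplicates in the study and numbered in the labels, but neither says whether they came from separate cultures, so the p-values measure only the spread between these libraries.

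Library totals ran from 11077368 to 21901406 counts. Levels are given in CPM (counts scaled to a common library total, with TMM scaling) where libraries were compared for a single gene, and per kilobase of the main transcript (RPKM) where genes were compared with each other. Of 10 epithelial and ovarian carcinoma markers, 1 to 3 reached a mean of 1 CPM in the A2780 groups and 2 in the A2780cis groups. Their sum was 2.70 to 6.35 CPM in A2780 against 28.3 to 31.8 CPM in A2780cis, most of the latter KRT18. The defining epithelial markers were thus close to absent in A2780, and most of them also stayed under 1 CPM in A2780cis. All 5 fibroblast markers reached 1 CPM in A2780, with a sum of 119 to 237 CPM led by PDGFRA or COL1A2, against 4.48 to 5.82 CPM in A2780cis. Of the leukocyte markers CD68 alone reached 1 CPM, and the endothelial markers stayed under it. The part of these markers in the results was not tested.

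Both classes had lower summed levels after 12 h of 5-FdU-ECyd in both lines, and the cytosolic class was the more abundant. Its summed level in untreated cells at 12 h was 6442 ± 218 CPM in A2780 and 4397 ± 194 CPM in A2780cis (mean ± SD, n = 3). After 12 h of 5-FdU-ECyd the sums were 3707 ± 210.2 CPM and 3159 ± 259 CPM. No treated library reached the lowest untreated library of its own line at that time. The mitochondrial sums moved from 1128 ± 3.33 CPM to 775 ± 21.3 CPM in A2780 and from 1108 ± 18.02 CPM to 907 ± 53.9 CPM in A2780cis. At 6 h the cytosolic sums were 7009.6 ± 462 CPM untreated and 6025 ± 279 CPM treated in A2780, and 5118 ± 140.1 CPM and 4466 ± 179 CPM in A2780cis, with smaller distances than at 12 h. These sums weigh the abundant genes most and carry no test. Each library is scaled to its own total, so the levels are shares of the RNA sequenced. Neither the number of cells nor the total RNA per cell can be read from them.

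**Figure D1:**
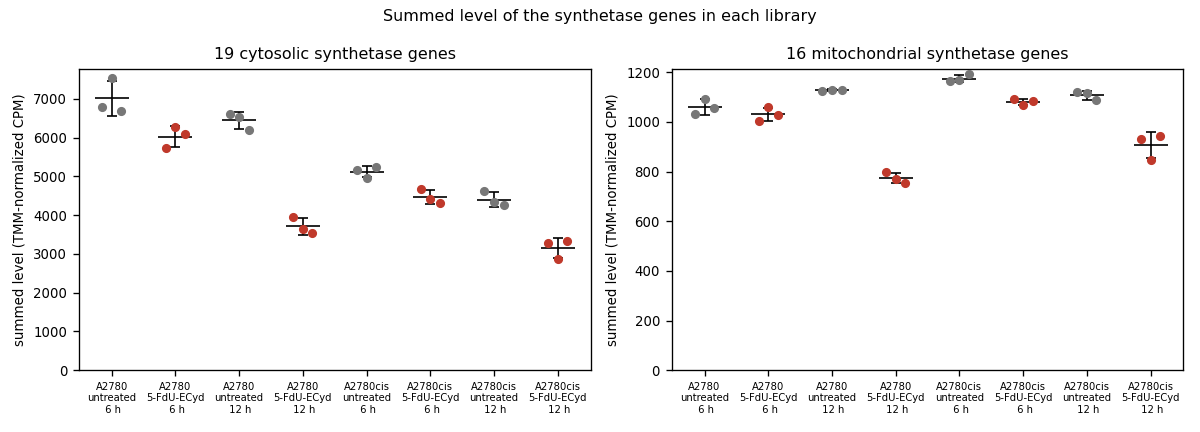
Summed level in TMM-normalized CPM of the 19 cytosolic and the 16 mitochondrial synthetase genes in each of the 24 libraries, with untreated libraries in grey, libraries treated with 1 µM 5-FdU-ECyd in red, and the mean and SD of 3 libraries in black. Within each line both classes were lowest in the treated libraries at 12 h, and the untreated A2780cis libraries lay under the untreated A2780 libraries of the same time for the cytosolic class.

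The first question was how each line's synthetase genes stood after 12 h of 5-FdU-ECyd. In A2780, 28 of the 35 genes were down-regulated and 2 were up-regulated at an adjusted p of at most 0.05 (edgeR's quasi-likelihood test, Benjamini-Hochberg adjusted over all tested genes), against 26.1% down-regulated and 28.6% up-regulated (54.8% in either direction) among all 20240 genes. All 19 cytosolic genes were down-regulated, by a log2 fold change (log2 FC, treated against untreated) of -1.17 to -0.24 with a median of -0.79, where the median of all genes was 0.02. Of the 16 mitochondrial genes 9 were down-regulated and 2 up-regulated, with a median of -0.38 and a range of -1.14 to 0.71. In A2780cis, 24 genes were down-regulated and 2 up-regulated, against 28.9% and 31.0% of all genes (59.9% in either direction). Of the cytosolic genes 15 were down-regulated (median -0.47, range -0.96 to 0.10), and of the mitochondrial genes 9 were down-regulated and 2 up-regulated (median -0.30, range -1.13 to 0.90), where the median of all genes was 0.04. The 4 cytosolic genes without a call in A2780cis were KARS1, QARS1, HARS1 and SARS1.

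**Figure D2:**
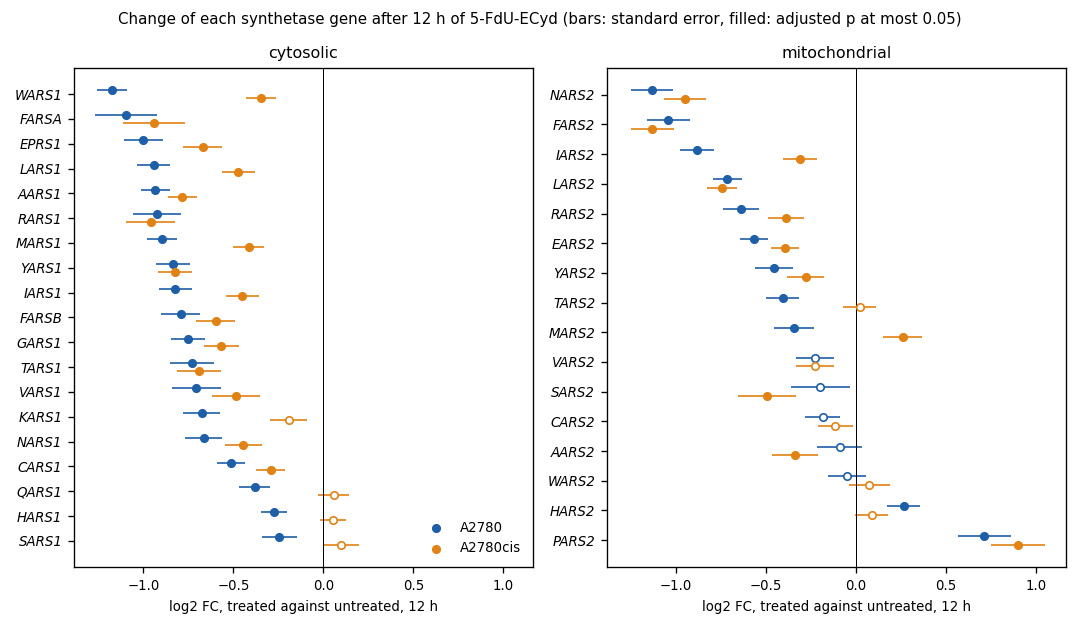
log2 FC of treated against untreated libraries at 12 h for each cytosolic (left) and mitochondrial (right) synthetase gene in A2780 (blue) and A2780cis (orange), with the standard error as bars and filled points for an adjusted p of at most 0.05. All 19 cytosolic genes lay left of 0 in A2780, most A2780cis points lay nearer to 0, and PARS2 stood apart on the right in both lines.

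Within the cytosolic set, the 7 members of the multi-synthetase complex in the list (EPRS1, IARS1, KARS1, LARS1, MARS1, QARS1 and RARS1) were all down-regulated in A2780 with a median log2 FC of -0.90, and 5 of them in A2780cis with a median of -0.45. The 12 cytosolic genes outside the complex had medians of -0.74 and -0.53, with 12 and 10 of them down-regulated. MARS1, the methionine enzyme of the complex, had 414, 402 and 418 CPM in untreated A2780 and 228, 230.4 and 206 CPM in treated A2780 at 12 h. In A2780cis its levels were 210.1, 221 and 218 CPM untreated and 155, 152 and 179 CPM treated. The groups did not overlap in either line, and the log2 FC was -0.90 ± 0.085 (SE, adjusted p = 2.10e-09) in A2780 and -0.42 ± 0.085 (SE, adjusted p = 0.000149) in A2780cis. At 6 h the treated MARS1 levels (347, 348 and 307 CPM in A2780, 205, 201 and 209.9 CPM in A2780cis) overlapped the untreated ones (325, 389 and 366 CPM and 209, 214 and 205 CPM). Exons of MARS1 share 355 bases with DDIT3, a stress-induced transcription factor gene on the opposite strand, which had a 12 h log2 FC of 0.72 (A2780) and 0.89 (A2780cis), both up-regulated. The strand setting of the counting was not given in the sources used here, so reads from the shared bases cannot be told apart.

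Outside the complex, WARS1, the tryptophan enzyme and a known interferon-induced gene, gave the smallest p in A2780. Its levels at 12 h were 653, 659.8 and 637 CPM in untreated A2780 and 299.9, 293 and 272 CPM in treated A2780. In A2780cis they were 149.7, 155 and 155 CPM untreated and 122, 112 and 127 CPM treated. The treated libraries lay under all untreated libraries of the same line, with a log2 FC of -1.17 ± 0.085 (SE, adjusted p = 1.68e-11) in A2780 and of -0.35 ± 0.085 (SE, adjusted p = 0.00110) in A2780cis. At 6 h WARS1 stood at 564, 658 and 602 CPM untreated and 549.99, 582 and 529 CPM treated in A2780, and at 159.9, 180.3 and 146 CPM untreated and 152, 159.8 and 158 CPM treated in A2780cis, with overlapping groups in both lines.

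AARS1, the alanine enzyme, had the smallest p of the members in A2780cis at 12 h and in A2780 at 6 h. At 12 h it was at 361, 366 and 389 CPM in untreated and 194, 198 and 192 CPM in treated A2780. In A2780cis the levels were 293, 299.8 and 307 CPM untreated and 168, 165 and 189.9 CPM treated. No groups overlapped, and the log2 FC was -0.93 ± 0.081 (SE, adjusted p = 4.78e-10) in A2780 and -0.78 ± 0.081 (SE, adjusted p = 7.30e-09) in A2780cis. At 6 h AARS1 was at 251, 299 and 285 CPM untreated and 211, 211 and 192 CPM treated in A2780, a log2 FC of -0.44 ± 0.081 (SE, adjusted p = 0.000195), and at 253, 268 and 244 CPM untreated and 218, 213 and 227 CPM treated in A2780cis, a log2 FC of -0.22 ± 0.081 (SE, adjusted p = 0.0414). That last call was lost without untreated replicate 1 or 2 or any of the treated replicates (adjusted p = 0.0656 to 0.139). The treated levels of AARS1 at 6 h and 12 h overlapped in A2780, while the untreated level was higher at 12 h by a log2 FC of 0.42 ± 0.081 (SE, adjusted p = 0.00132).

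The mitochondrial genes split in direction at 12 h. NARS2, FARS2 and LARS2, the mitochondrial asparagine, phenylalanine and leucine enzymes, were down-regulated in both lines, and PARS2, the mitochondrial proline enzyme, was up-regulated in both. NARS2 was at 26.9, 22.9 and 20.6 CPM in untreated and 12.2, 10.02 and 9.91 CPM in treated A2780 at 12 h, and at 22.5, 20.8 and 20.8 CPM untreated and 12.1, 10.4 and 10.7 CPM treated in A2780cis. Its log2 FC was -1.14 ± 0.12 (SE, adjusted p = 8.31e-09) in A2780 and -0.95 ± 0.12 (SE, adjusted p = 1.22e-07) in A2780cis, without overlap in either line. FARS2 was at 16.8, 16.6 and 17.4 CPM untreated and 7.78, 8.16 and 8.65 CPM treated in A2780, and at 18.9, 17.2 and 18.4 CPM untreated and 8.70, 7.29 and 8.85 CPM treated in A2780cis. The log2 FC of FARS2 was -1.04 ± 0.12 (SE, adjusted p = 5.07e-08) and -1.13 ± 0.12 (SE, adjusted p = 9.77e-09), again with all treated libraries under all untreated ones. LARS2 was at 105, 105 and 111 CPM untreated and 64.5, 66.1 and 64.9 CPM treated in A2780, and at 78.2, 86.2 and 81.7 CPM untreated and 51.1, 49.5 and 46.3 CPM treated in A2780cis. Its log2 FC was -0.72 ± 0.082 (SE, adjusted p = 5.03e-08) and -0.74 ± 0.083 (SE, adjusted p = 2.39e-08). At 6 h LARS2 did not separate the groups, with 79.5, 95.9 and 88.3 CPM untreated and 92.96, 90.3 and 84.2 CPM treated in A2780, and 70.6, 73.2 and 61.7 CPM untreated and 64.02, 65.1 and 67.5 CPM treated in A2780cis.

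PARS2 was the least abundant member per kilobase in untreated A2780 at 6 h and at 12 h (30th of 35 in treated A2780 at 12 h), and it was the one member called higher after treatment at 12 h in both lines. In A2780 it was at 8.65, 7.64 and 9.40 CPM untreated and 14.01, 14.5 and 13.7 CPM treated. In A2780cis it was at 5.78, 7.13 and 8.37 CPM untreated and 13.2, 13.3 and 13.2 CPM treated. Every treated library lay over every untreated library of its line, with a log2 FC of 0.71 ± 0.15 (SE, adjusted p = 0.000192) in A2780 and of 0.90 ± 0.15 (SE, adjusted p = 1.09e-05) in A2780cis. At 6 h the levels were 6.32, 7.85 and 7.27 CPM untreated and 8.61, 11.4 and 6.96 CPM treated in A2780 and 6.19, 8.52 and 6.87 CPM untreated and 8.21, 8.11 and 8.06 CPM treated in A2780cis, with overlap in both lines and no call.

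HARS2, the mitochondrial histidine enzyme, which starts head to head with its cytosolic counterpart HARS1 on chromosome 5 and shares 108 exon bases with it, was the other member called higher in A2780. It was at 45.9, 45.3 and 42.7 CPM in untreated and 59.4, 50.5 and 51.2 CPM in treated A2780 at 12 h. Its log2 FC there was 0.26 ± 0.093 (SE, adjusted p = 0.0185), while HARS1 was down-regulated. In A2780cis HARS2 was at 68.5, 60.2 and 57.6 CPM untreated and 64.3, 58.7 and 75.05 CPM treated, with overlap and no call. Its call in A2780 was lost without untreated replicate 3 (adjusted p = 0.0793) and without treated replicate 1 (adjusted p = 0.140). At 6 h HARS2 was at 48.96, 51.8 and 47.01 CPM untreated and 47.8, 52.3 and 49.8 CPM treated in A2780 and at 67.9, 65.8 and 69.6 CPM untreated and 62.4, 59.4 and 62.1 CPM treated in A2780cis.

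MARS2, the mitochondrial methionine enzyme, encoded by a single exon, was the member called in opposite directions in the lines. It was at 17.1, 18.8 and 19.5 CPM untreated and 16.7, 13.3 and 13.8 CPM treated in A2780 at 12 h, a log2 FC of -0.34 ± 0.11 (SE, adjusted p = 0.00994). In A2780cis it was at 14.4, 13.9 and 15.1 CPM untreated and 17.02, 16.9 and 18.01 CPM treated, a log2 FC of 0.26 ± 0.11 (SE, adjusted p = 0.0457). The groups did not overlap in either line, but the call in A2780cis was lost when any 1 of the 6 libraries was left out (adjusted p = 0.0618 to 0.167) and in the DESeq2 Wald test, and the call in A2780 was lost without treated replicate 2. At 6 h the levels overlapped, with 18.1, 19.5 and 21.1 CPM untreated and 16.5, 18.4 and 16.5 CPM treated in A2780 and 18.4, 18.05 and 14.97 CPM untreated and 19.4, 17.7 and 15.8 CPM treated in A2780cis.

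**Figure D3:**
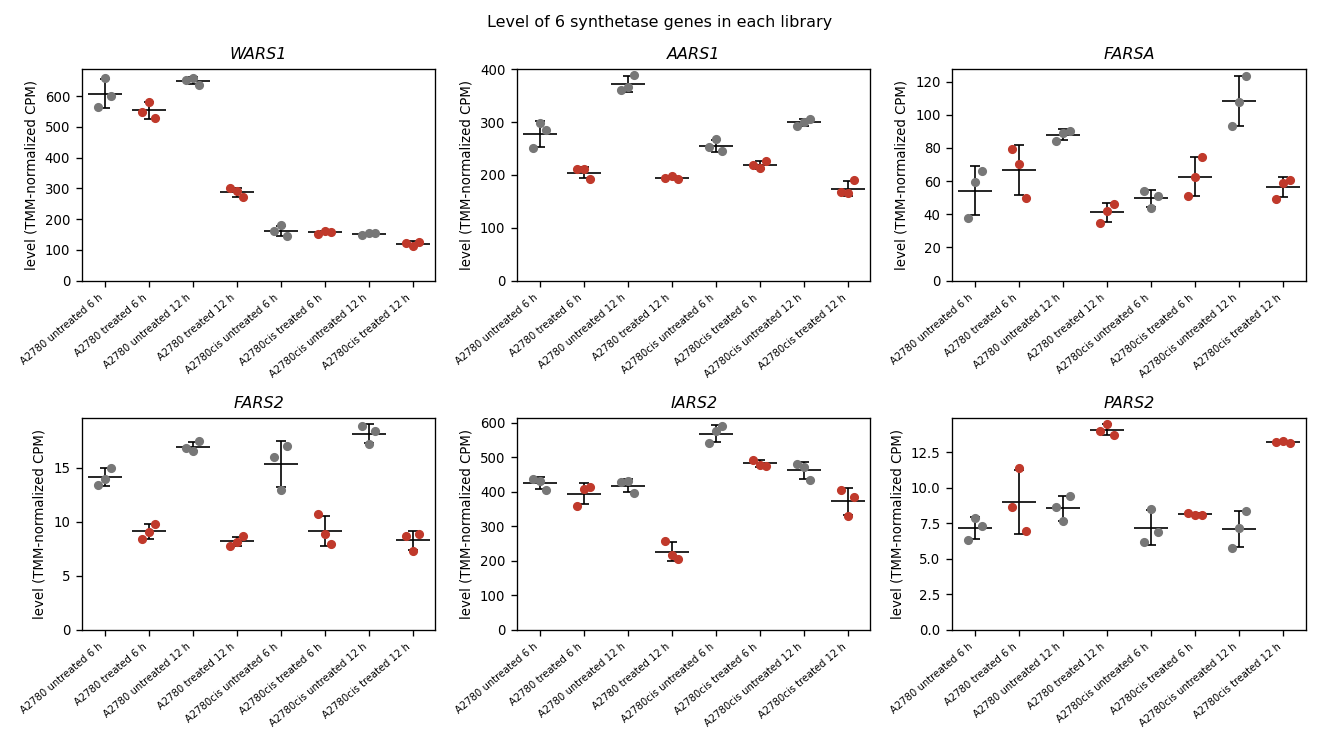
Level in TMM-normalized CPM of WARS1, AARS1, FARSA, FARS2, IARS2 and PARS2 in each of the 24 libraries (grey untreated, red treated with 1 µM 5-FdU-ECyd), with the mean and SD of 3 libraries in black. WARS1 was lower in every A2780cis library than in every A2780 library, FARS2 was lower in treated libraries at both times, and PARS2 was higher in the treated libraries at 12 h.

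The next question was whether the lines responded to the same degree. At 12 h the interaction of line and treatment passed the threshold for 10 of the 35 genes, 7 cytosolic and 3 mitochondrial, against 23.7% of all genes. All 10 had a positive difference (log2 FC in A2780cis minus log2 FC in A2780), where 9.70% of all genes were called positive and 14.0% negative, and all 10 were down-regulated in A2780. In A2780cis IARS1, LARS1, MARS1, WARS1 and IARS2 were down-regulated by less, MARS2 was up-regulated, and KARS1, QARS1, HARS1 and TARS2 had no call (log2 FC -0.19, 0.06, 0.05 and 0.02). The difference was 0.83 ± 0.12 (SE, adjusted p = 2.47e-05) for WARS1, 0.57 ± 0.13 (SE, adjusted p = 0.00298) for IARS2 and 0.48 ± 0.12 (SE, adjusted p = 0.00491) for MARS1. The others were IARS1, KARS1, LARS1, QARS1 and HARS1 of the cytosolic set, and MARS2 and TARS2 of the mitochondrial set. When low-count genes were not filtered, 6 of the 10 kept a call and IARS1, QARS1, HARS1 and TARS2 lost it. IARS1 also lost it without any 1 of 8 libraries, HARS1 without A2780cis untreated replicate 2 or 3 or treated replicate 3, KARS1 without A2780cis untreated replicate 3 or treated replicate 3, and TARS2 without A2780 untreated replicate 3.

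IARS2, the mitochondrial isoleucine enzyme and the most abundant mitochondrial member, showed the line difference among the mitochondrial genes with the smallest p. In A2780 at 12 h it was at 428, 432 and 395 CPM untreated and 258, 217 and 204 CPM treated, a log2 FC of -0.89 ± 0.095 (SE, adjusted p = 1.83e-08). In A2780cis it was at 482, 472 and 435 CPM untreated and 404, 329 and 385 CPM treated, a log2 FC of -0.31 ± 0.094 (SE, adjusted p = 0.00585). The groups did not overlap in either line, and the treated A2780 libraries lay lowest of the 4 groups at 12 h. At 6 h it was at 437, 432 and 405 CPM untreated and 359, 409 and 415 CPM treated in A2780, which overlapped, and at 541, 575 and 591 CPM untreated and 493, 479 and 475 CPM treated in A2780cis, which did not overlap although the gene had no call there. At 6 h no member passed the interaction test (0 of 35 by edgeR, against 3.07% of all genes, 0.692% positive and 2.38% negative, with 1 member, YARS1, at an unadjusted p under 0.05 and 0 called by DESeq2).

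The early response held fewer calls. At 6 h in A2780, 9 genes were down-regulated and 2 up-regulated, against 13.4% and 16.0% of all genes (29.4% in either direction). Of the cytosolic genes 6 were down-regulated (median log2 FC -0.13), and of the mitochondrial genes 3 were down-regulated and 2 up-regulated (median -0.03). In A2780cis, 11 were down-regulated and 2 up-regulated, against 16.3% and 14.4% of all genes (30.7% in either direction), with 7 cytosolic genes down-regulated (median -0.16) and 4 mitochondrial genes down-regulated and 2 up-regulated (median 0.03). The A2780 total of 11 fell to 7 without treated replicate 1, and the A2780cis total of 13 to 8 without untreated replicate 2 or 3, 7 without treated replicate 2 and 6 without treated replicate 3. FARS2 was already lower at this time, at 13.4, 13.9 and 15 CPM untreated and 8.44, 9.07 and 9.78 CPM treated in A2780, and at 15.99, 12.9 and 17.01 CPM untreated and 10.7, 8.91 and 7.92 CPM treated in A2780cis. Its log2 FC was -0.63 ± 0.13 (SE, adjusted p = 0.000516) and -0.75 ± 0.12 (SE, adjusted p = 4.60e-05), and the groups did not overlap. NARS2 was at 19.6, 21.1 and 18.2 CPM untreated and 12.5, 15.3 and 12.6 CPM treated in A2780, with a log2 FC of -0.55 ± 0.12 (SE, adjusted p = 0.00122), and at 22, 20.5 and 23.6 CPM untreated and 15.7, 15.7 and 16.6 CPM treated in A2780cis, with a log2 FC of -0.46 ± 0.12 (SE, adjusted p = 0.00375).

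Among the cytosolic genes, TARS1, the threonine enzyme, was at 471, 529 and 445 CPM untreated and 289, 331 and 342 CPM treated in A2780 at 6 h, a log2 FC of -0.59 ± 0.12 (SE, adjusted p = 0.000681), and at 315, 274 and 342 CPM untreated and 250.3, 230.3 and 218 CPM treated in A2780cis, a log2 FC of -0.41 ± 0.12 (SE, adjusted p = 0.0112). At 12 h it was at 390.3, 373 and 320.4 CPM untreated and 249, 204 and 200.2 CPM treated in A2780 and 273, 231 and 213 CPM untreated and 157, 124 and 164 CPM treated in A2780cis. The treated libraries were under the untreated ones in all 4 comparisons, and the difference between its 12 h and 6 h effects did not pass the test in either line. The 6 h call in A2780cis was lost without untreated replicate 3 or treated replicate 3. FARSB, the beta subunit of the phenylalanine enzyme, was at 150.4, 168 and 147 CPM untreated and 100.04, 113 and 117 CPM treated in A2780 and 163, 158 and 181 CPM untreated and 138, 122 and 114 CPM treated in A2780cis at 6 h, a log2 FC of -0.49 ± 0.11 (SE, adjusted p = 0.00129) and -0.43 ± 0.11 (SE, adjusted p = 0.00389). At 12 h FARSB was at 129.97, 122 and 115 CPM untreated and 78.4, 67.1 and 66.6 CPM treated in A2780 and 149, 133 and 124 CPM untreated and 101, 73.7 and 93.6 CPM treated in A2780cis. It too was lower in the treated libraries throughout, without overlap.

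VARS2 and AARS2, the mitochondrial valine and alanine enzymes, were the up-regulated members at 6 h in both lines, and most exon bases of VARS2 are shared with another annotated gene. VARS2 was at 54.9, 58.7 and 69.7 CPM untreated and 85.96, 76.3 and 74.7 CPM treated in A2780 and at 84.8, 76.7 and 70.4 CPM untreated and 91.6, 93.9 and 101 CPM treated in A2780cis, a log2 FC of 0.37 ± 0.11 (SE, adjusted p = 0.0109) and 0.31 ± 0.11 (SE, adjusted p = 0.0300). At 12 h it was at 76.9, 75.7 and 87.6 CPM untreated and 60.5, 74.8 and 69.8 CPM treated in A2780 and 85.5, 98.9 and 101 CPM untreated and 75.1, 78.9 and 89.6 CPM treated in A2780cis, with no call. AARS2 was at 15.7, 18.5 and 22.6 CPM untreated and 26.7, 24.4 and 23.2 CPM treated in A2780 and at 15.4, 15.6 and 13.3 CPM untreated and 18.97, 19.1 and 19.9 CPM treated in A2780cis at 6 h, a log2 FC of 0.39 ± 0.13 (SE, adjusted p = 0.0294) and 0.39 ± 0.14 (SE, adjusted p = 0.0316). At 12 h AARS2 was at 23.7, 25.4 and 30.2 CPM untreated and 21.4, 25.6 and 27.3 CPM treated in A2780, which overlapped, and 22.7, 25.2 and 27.3 CPM untreated and 18.2, 22.4 and 18.9 CPM treated in A2780cis, where it was down-regulated. Both genes were higher in every treated than in every untreated library at 6 h, but these calls rested on single libraries. In A2780 both were lost without untreated replicate 1 or treated replicate 1, and AARS2 also without untreated or treated replicate 2. In A2780cis both were lost without untreated replicate 3 or treated replicate 2 or 3, VARS2 also without untreated replicate 2 and AARS2 without treated replicate 1. The 12 h call of AARS2 in A2780cis was lost without untreated replicate 3 or treated replicate 1 or 3.

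The difference between the 12 h and the 6 h effect passed the test for 22 members in A2780, all of them toward a lower level at 12 h, against 13.0% of all genes called in that direction and 10.7% in the other. In A2780cis it passed for 11, 10 of them in that direction, against 13.6% of all genes, and the other, in the direction called for 10.3%, was PARS2, whose call was lost without untreated 6 h replicate 2 or untreated 12 h replicate 1. Without A2780cis treated 12 h replicate 1 the count was 17. Of the 22 calls in A2780, 6 were lost when single libraries were left out (HARS1, CARS2, EARS2, RARS2, NARS2 and TARS2). In A2780cis 2 of the 11 were lost in that way, NARS2 and PARS2. With libraries scaled only by their totals 6 calls were lost in A2780 and 0 in A2780cis, and without the filter on low counts 5 and 1. FARSA, the alpha subunit of the phenylalanine enzyme, is given here because its difference was the greatest in size among the members in both lines, a choice made after its values were seen. It was at 37.6, 59.2 and 65.8 CPM untreated and 79.5, 70.4 and 49.8 CPM treated in A2780 at 6 h, which overlapped, and at 84.4, 89.1 and 90.5 CPM untreated and 34.8, 41.98 and 46.4 CPM treated at 12 h, which did not. In A2780cis it was at 54.2, 44.02 and 50.8 CPM untreated and 51.2, 62.3 and 74.7 CPM treated at 6 h and 93.5, 108 and 123 CPM untreated and 49.3, 58.9 and 60.96 CPM treated at 12 h. The 12 h effect minus the 6 h effect was -1.39 ± 0.25 (SE, adjusted p = 0.000273) in A2780 and -1.28 ± 0.25 (SE, adjusted p = 0.000555) in A2780cis.

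Part of that difference lay in the untreated cells. Untreated FARSA was higher at 12 h than at 6 h by a log2 FC of 0.70 ± 0.17 (SE, adjusted p = 0.00556) in A2780 and of 1.12 ± 0.17 (SE, adjusted p = 6.03e-05) in A2780cis, and VARS1, the cytosolic valine enzyme, by 0.76 ± 0.14 (SE, adjusted p = 0.000998) and 0.84 ± 0.14 (SE, adjusted p = 8.66e-05). In all, 14 members (7 higher and 7 lower) differed between the times in untreated A2780, against 16.6% and 10.3% of all genes (26.9% in either direction), and 22 (9 higher and 13 lower) in untreated A2780cis, against 18.0% and 21.9% (39.9% in either direction). RARS1, TARS1, EPRS1, NARS1 and FARSB of the cytosolic set and RARS2 and WARS2 of the mitochondrial set were lower at 12 h in both untreated lines. None of these genes kept its call in both lines when single libraries were left out. EPRS1, RARS1, FARSB, TARS1, RARS2 and WARS2 lost it in A2780, and FARSB, NARS1, TARS1 and WARS2 lost it in A2780cis. The A2780 count was 6 without 6 h replicate 1, 9 without 6 h replicate 2 and 5 without 12 h replicate 3, and FARSA was among the calls lost without 6 h replicate 1. The A2780cis count was 13 without 6 h replicate 3 or without 12 h replicate 3. With libraries scaled only by their totals, 1 of the 14 calls in A2780 and 8 of the 22 in A2780cis were lost. The untreated 12 h libraries were also deeper, with median totals of 17423522.5 (A2780) and 18277766.1 counts (A2780cis). The 6 h medians were 11704301.2 and 12092593 counts, so depth cannot be told apart from time.

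The untreated lines differed from each other in the synthetase genes at both times. At 12 h, 20 members were lower and 5 higher in A2780cis than in A2780, against 27.5% and 25.4% of all genes (52.9% in either direction), with 14 lower and 2 higher among the cytosolic genes (median log2 FC -0.34) and 6 lower and 3 higher among the mitochondrial genes (median -0.10). At 6 h, 15 were lower and 5 higher, against 22.9% and 25.0% (47.9% in either direction). When single libraries were left out, 5 of the 25 calls at 12 h were lost, IARS1, KARS1 and QARS1 (lower) and VARS2 and SARS2 (higher). At 6 h 2 of the 20 were lost, VARS2 (higher) and AARS2 (lower). WARS1 had the greatest difference of the members, with a log2 FC of -2.09 ± 0.088 (SE, adjusted p = 4.95e-17) at 12 h and -1.91 ± 0.088 (SE, adjusted p = 3.99e-16) at 6 h. SARS1, the serine enzyme, was at 254, 249 and 261 CPM in A2780 and 94.2, 80.7 and 81.8 CPM in A2780cis at 12 h, and at 263, 299 and 267 CPM (A2780) and 113, 95.3 and 122 CPM (A2780cis) at 6 h. Its log2 FC was -1.57 ± 0.10 (SE, adjusted p = 3.57e-13) and -1.33 ± 0.10 (SE, adjusted p = 1.39e-11), and the lines did not overlap for either gene. VARS1 was higher in A2780cis, by a log2 FC of 0.72 ± 0.14 (SE, adjusted p = 6.17e-05) at 12 h, and WARS2, the mitochondrial tryptophan enzyme, was lower, with a log2 FC of -1.02 ± 0.11 (SE, adjusted p = 1.40e-08), although treatment gave it no call in either line.

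Per kilobase, the order of the members changed between the lines. In untreated A2780 at 12 h WARS1 led with 246 ± 4.4 RPKM (SD, n = 3), followed by GARS1 at 188 ± 6.4 and NARS1 at 185 ± 16, a pair that did not differ beyond their spread. In untreated A2780cis KARS1 (139 ± 14 RPKM), NARS1 (136 ± 14), IARS1 (133 ± 9.2) and the mitochondrial IARS2 (131 ± 7.1) stood first and lay within each other's spread. WARS1 was at 58.0 ± 1.1 RPKM there, place 15 of 35. At the low end were PARS2 at 3.64 ± 0.37 RPKM in A2780 and WARS2 at 2.83 ± 0.22 RPKM in A2780cis, the latter within the spread of PARS2 at 3.01 ± 0.55. IARS2 was the mitochondrial member with the highest level per kilobase in both untreated lines at 12 h.

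The line difference was set against a list of 12 cytosolic synthetases known as ATF4 targets (AARS1, CARS1, EPRS1, GARS1, IARS1, LARS1, MARS1, NARS1, SARS1, TARS1, WARS1 and YARS1). The list was chosen with earlier results of these data known. Its counts describe these genes and are no independent test of a part of ATF4. All 12 were lower in untreated A2780cis at 12 h (median log2 FC -0.71, range -2.09 to -0.24), and 9 were at 6 h (median -0.62), where 27.5% and 22.9% of all genes were lower. The 12 h call of IARS1 was lost without untreated A2780 replicate 1 or 2 or untreated A2780cis replicate 2 or 3 (adjusted p = 0.0704 to 0.115), which left 11 of the 12. Of the 7 other cytosolic members 2 were lower and 2 higher at 12 h (median 0.14), and none was lower and 2 were higher at 6 h. The 2 lower ones, KARS1 and QARS1, lost their call when single libraries were left out. After 12 h of treatment 12 of the 12 and 7 of the 7 were down-regulated in A2780 (medians -0.83 and -0.71), where 26.1% of all genes were, and 11 of the 12 and 4 of the 7 in A2780cis (medians -0.46 and -0.48), where 28.9% of all genes were. The ATF4 transcript itself, named here after its values were seen, was lower in untreated A2780cis by a log2 FC of -1.12 at 12 h and -1.001 at 6 h.

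**Figure D4:**
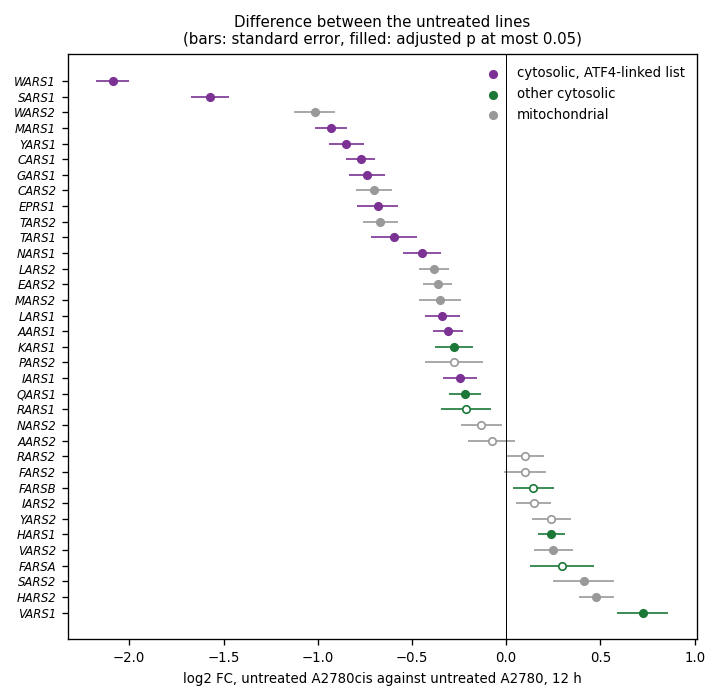
log2 FC of untreated A2780cis against untreated A2780 at 12 h for each of the 35 synthetase genes, in order of the difference, with the standard error as bars and filled points for an adjusted p of at most 0.05. The 12 genes of the ATF4-linked list (purple) all lay left of 0, with WARS1 and SARS1 at the far end, while other cytosolic genes (green) and mitochondrial genes (grey) lay on both sides.

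ATF4 binds with a C/EBP partner to a composite element, and the core of that element, TGATGNAA, was looked for on both strands in the 300 bases around each transcription start (250 before and 50 after, RefSeq, GRCh38.p14). Start regions were matched for 30 of the 35 members. Of all genes 4.46% had the letters, against 7 of 16 cytosolic members (43.8%) and 1 of 14 mitochondrial members (7.14%). All 7 cytosolic genes were among the 10 matched members of the ATF4-linked list (70.0%), and none was among the other 6. The stricter TGATGCAA, which is contained in the first pattern, was in 1.08% of all genes and in 6 of those 10. The matched members of the list without the letters were EPRS1, SARS1 and WARS1. WARS1 and SARS1 had the greatest differences of the list between the untreated lines at 12 h. IARS1, which has the letters, had the smallest. The 28 bases around each match are shown because they set the genes with the letters apart from the rest, each written 5′ to 3′ on the strand of its gene, with the match, in either orientation, in capitals.
AARS1 (chr16:70289676-70289703, - strand): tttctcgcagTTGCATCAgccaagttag
CARS1 (chr11:3057408-3057435, - strand): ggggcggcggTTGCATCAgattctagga
GARS1 (chr7:30594835-30594862, + strand): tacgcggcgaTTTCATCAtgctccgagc
IARS1 (chr9:92293693-92293720, - strand): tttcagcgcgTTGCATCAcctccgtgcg
MARS1 (chr12:57488054-57488081, + strand): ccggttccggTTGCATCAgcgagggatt
NARS1 (chr18:57621805-57621832, - strand): ctacgctctcTGATGCAAcgccggaatc
TARS1 (chr5:33440957-33440984, + strand): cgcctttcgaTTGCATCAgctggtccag
YARS2 (chr12:32756077-32756104, - strand): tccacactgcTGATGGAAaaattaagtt
AARS1 and YARS2 had the letters about 190 bases before the RefSeq start used, and the other genes had them close to it. These distances depend on the start chosen. In the GENCODE v44 annotation AARS1 starts at chr16:70289707 on the - strand, so its match lies inside that gene. A match describes letters and not a bound site, and binding was not measured.

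Other genes of the same pathways were taken from lists, which were also chosen with earlier results of these data known. Of 20 tested genes of the amino acid response, 12 (60% of the list) were down-regulated and 4 (20%) up-regulated in A2780 at 12 h, where 26.1% and 28.6% of all genes were. In A2780cis 6 (30%) and 5 (25%) were, near the 28.9% and 31.0% of all genes. SLC7A5, the large neutral amino acid transporter subunit, fell by 1.38 in A2780 and 1.45 in A2780cis on the log2 scale, PSAT1, a serine synthesis enzyme, fell by 1.14 in A2780, and VLDLR, a lipoprotein receptor, by 1.06. SESN2, CEBPB and CHAC1, stress-induced genes, rose in A2780cis by a log2 FC of 1.45, 1.36 and 1.62. Between the untreated lines 15 of the 20 (75%) were lower and 3 (15%) higher in A2780cis at 12 h, where 27.5% and 25.4% of all genes were. Among the lower genes were PHGDH and PSAT1 of serine synthesis (log2 FC -2.48 and -1.49) and VLDLR (-2.11), and the median log2 FC of the list was -0.87.

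The 3 scaffold proteins of the multi-synthetase complex did not move as a block. AIMP2 fell by 0.93 in A2780 and 0.55 in A2780cis at 12 h on the log2 scale, EEF1E1 fell by 0.72 in A2780 and had a log2 FC of -0.17 without a call in A2780cis, and AIMP1 fell by 0.54 in A2780cis and had -0.09 without a call in A2780. Of 6 cytosolic elongation factor genes 2 were down-regulated in A2780, EEF2 (log2 FC -0.81) and EEF1D (-0.40), and in A2780cis 3 were down-regulated and 2 up-regulated, EEF2 at -1.07 and EEF1B2 at 0.50 among them. That made 33.3% of these genes called in A2780 and 83.3% in A2780cis, against 54.8% and 59.9% of all genes. Of 16 partners of mitochondrial translation 9 were down-regulated and 3 up-regulated in A2780 (56.2% and 18.8%, against 26.1% and 28.6% of all genes), and 7 and 2 in A2780cis (43.8% and 12.5%, against 28.9% and 31.0%). MRRF, the mitochondrial ribosome recycling factor, fell by 0.84 and 0.99, TRMU, a tRNA-modifying enzyme, by 0.57 and 0.85, and QRSL1, which makes glutaminyl-tRNA in mitochondria, by 0.52 and 1.04. Of 7 genes for proofreading, export and end repair of tRNA 3 were down-regulated in each line at 12 h, and 1 was up-regulated in A2780 and 2 were in A2780cis. Called genes made up 57.1% of the list in A2780, where 54.8% of all genes were called, and 71.4% in A2780cis, where 59.9% were. XPOT, the tRNA export receptor, fell by 1.21 in A2780 and 1.08 in A2780cis, while ELAC1, a tRNA end-processing enzyme, was up-regulated (log2 FC 0.71 and 1.30).

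Gene span, the distance from start to end of the gene on the chromosome, went with the signed log2 FC, which was lower for longer genes. Over the 35 members the rank correlation of span with the 12 h log2 FC was -0.50 in A2780 and -0.47 in A2780cis, and with the 6 h log2 FC -0.56 and -0.63. Over 13895 protein-coding genes it was -0.23, -0.38, -0.35 and -0.40 in the same order. These describe genes measured in the same libraries, which are not independent replicates. The 10 members of up to 20 kb had 12 h medians of -0.25 (A2780) and -0.09 (A2780cis) on the log2 scale, the 15 from 20 to 60 kb -0.73 and -0.39, and the 10 over 60 kb -0.81 and -0.53, with the limits chosen after the data were seen. Protein-coding genes in the same ranges had medians of 0.08, 0.03 and -0.23 in A2780 and 0.23, -0.03 and -0.46 in A2780cis, so the 12 h medians of the members were lower in each range, by least over 60 kb in A2780cis, where members ran from -1.13 to 0.07. At 6 h this did not hold for the short genes. The 6 h medians of the members of up to 20 kb were 0.23 (A2780) and 0.22 (A2780cis), and those of protein-coding genes of that range 0.23 and 0.19. PARS2 (7.63 kb), HARS2 (7.88 kb) and MARS2 (3.03 kb) are short genes, and FARS2 (568 kb), LARS2 (166 kb) and NARS2 (140 kb) are the longest of the members. FARSA (11.6 kb) and VARS1 (18.2 kb) were short and fell in both lines at 12 h, and WARS2 (109 kb) was long and had no call. Of the 10 members of up to 20 kb, 2 were up-regulated and 5 down-regulated in A2780 at 12 h, and 2 and 4 in A2780cis. The part of span in the changes was not tested.

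**Figure D5:**
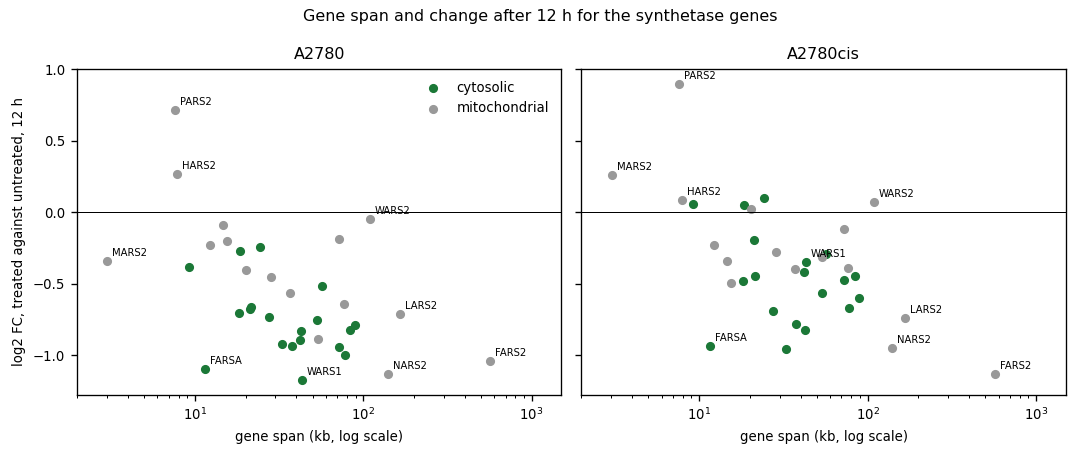
log2 FC of treated against untreated libraries at 12 h against gene span in kb (log scale) for the 35 synthetase genes in A2780 (left) and A2780cis (right), cytosolic in green and mitochondrial in grey. The longest genes, FARS2, LARS2 and NARS2, lay low in both lines, PARS2, HARS2 and MARS2 lay at the short end, and FARSA and WARS2 were among the genes that stood off that order.

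The counts of several members rest partly on shared sequence. SARS2, the mitochondrial serine enzyme, shares 48.2% of its exon bases with another annotated gene on the same strand that is counted in the table, so its 12 h log2 FC of -0.20 ± 0.16 (SE, adjusted p = 0.312) in A2780 and of -0.50 ± 0.16 (SE, adjusted p = 0.0100) in A2780cis is uncertain, and its A2780cis call was lost without untreated replicate 3. VARS2 shares 63.0% (4073 bases) with a long non-coding RNA gene annotated on the same strand, and YARS2 shares 18.1% with one on the opposite strand. Neither of these has a row of its own in the table. The values of VARS2, its 6 h rise included, are uncertain to that extent. Smaller overlaps were found for many members, and exon bases are shared with neighbours on the opposite strand by KARS1 and TERF2IP (176 bases), by WARS1 and WDR25 (287 bases), by YARS1 and S100PBP (396 bases), by MARS1 and ARHGAP9 (519 bases) and by HARS1 and WDR55 (1090 bases). On the same strand they are shared by HARS2 and ZMAT2 (152 bases), by HARS1 and DND1 (176 bases) and by EARS2 and GGA2 (203 bases). Whole counts in every library were found for 16 members, and fractions, which the authors' counting gave to reads with several matches, were present in the others. SARS2 had a fraction in 1 of 24 libraries, in spite of its shared exon bases.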

How the data were processed

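RNA-seq was made from 24 libraries of A2780 and A2780cis in 8 groups of 3, per the labels with a stranded total RNA kit. Per the labels, reads were aligned with STAR 2.5.2b to GRCh38 and counted per gene with featureCounts. The deposited table holds the authors' expected counts (fractional where a read matched several places), with no scaling, and the strand setting was not given in the sources used here. Counts were rounded, genes with low counts were removed with filterByExpr in edgeR 4.0.16 (minimum count 10, minimum total count 15) and libraries were scaled by TMM. One coefficient per group was fitted over all 24 libraries (16 residual degrees of freedom) with the quasi-likelihood test in R 4.3.3, and p-values were adjusted by Benjamini-Hochberg over 20240 genes at a threshold of 0.05. The SE was taken as |log2 FC| over the root of the F statistic. RPKM used the exon length of the Ensembl canonical transcript (GENCODE v44). Totals ranged from 11077368 to 21901406 counts. The scripts were checked on simulated data. Figures were drawn with matplotlib from the result tables.

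Members with the 3 smallest p-values in either direction among the calls of a treated against untreated comparison, or of the 12 h line difference, were given with every library, and of each other list up to 3 genes with the smallest p at 12 h were named. Genes outside this rule were chosen after their values were seen, or for their overlap with a member. SARS1, VARS1 and WARS2, named from the untreated comparisons, are among those chosen after their values were seen. The members and lists were chosen with earlier results of these data known. Alternatives were DESeq2 size factors, library size alone, no filter, unrounded counts, a replicate block, only the compared libraries, the DESeq2 1.42.0 Wald test and leaving out each library.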

Additional observations from a re-analysis of the deposited data

Results flagged for a closer look

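A difference between groups in the effect of 5-FdU-ECyd was what singled out the results below, each by the test of the difference itself (edgeR's quasi-likelihood interaction test with Benjamini-Hochberg adjustment, threshold 0.05). Between the lines at 12 h, the log2 FC in A2780cis minus that in A2780 was IARS1 0.37, KARS1 0.48, LARS1 0.47, MARS1 0.48, QARS1 0.44, HARS1 0.33, WARS1 0.83, IARS2 0.57, MARS2 0.60 and TARS2 0.43.

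Between the times in A2780, the 12 h log2 FC minus the 6 h log2 FC was EPRS1 -0.73, IARS1 -0.67, KARS1 -0.56, LARS1 -0.50, MARS1 -0.79, QARS1 -0.53, AARS1 -0.49, CARS1 -0.48, FARSA -1.39, GARS1 -0.59, HARS1 -0.33, VARS1 -0.88, WARS1 -1.04, YARS1 -0.82, CARS2 -0.41, EARS2 -0.35, IARS2 -0.78, LARS2 -0.74, RARS2 -0.41, VARS2 -0.60, NARS2 -0.59 and TARS2 -0.40. In A2780cis the same difference was MARS1 -0.39, AARS1 -0.57, FARSA -1.28, VARS1 -0.74, YARS1 -0.50, LARS2 -0.68, VARS2 -0.54, AARS2 -0.73, NARS2 -0.49, PARS2 0.72 and SARS2 -0.85. The untreated levels at 12 h and 6 h enter these differences, and among the genes named above for the line in question they differed in A2780 for FARSA, VARS1, AARS1, LARS2, VARS2 and TARS2 (higher at 12 h) and for EPRS1 and RARS2 (lower at 12 h), and in A2780cis for FARSA, VARS1, AARS1, LARS2, VARS2, AARS2 and SARS2, all higher. Groups of 3 libraries are too small for the test for a single library far from the others, and it was not applied.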

How the results depend on the processing

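The 12 h counts of called synthetase genes stayed within 1.5 times their main value under every alternative run (28 to 30 called when single libraries were left out in A2780, 23 to 26 in A2780cis), and no called gene turned its direction. With libraries scaled only by their totals, the 12 h median over all genes was a log2 FC of 0.24 (A2780; 0.02 with TMM) and 0.15 (A2780cis; 0.04 with TMM), and the 6 h median 0.10 in either line. Among the genes called, the up-regulated share went from 52.3% to 70.7%, 51.7% to 58.8%, 54.5% to 63.7% and 47.0% to 61.4% (A2780 and A2780cis at 12 h, then at 6 h). The cytosolic medians at 12 h were then -0.57 and -0.37 and the mitochondrial ones -0.15 and -0.19. QARS1, HARS1, SARS1, MARS2 and TARS2 lost their 12 h call in A2780 and YARS2, AARS2 and SARS2 in A2780cis. The median of the mitochondrial genes in A2780 at 6 h changed sign, from -0.03 to 0.033 with library size alone.

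Fitting only the compared libraries gave 3 mitochondrial calls in A2780 at 6 h instead of 5, and leaving low-count genes in gave 6 line differences at 12 h instead of 10. With single libraries left out, the 6 h calls ranged from 7 to 12 in A2780 (mitochondrial 2 to 5) and from 6 to 13 in A2780cis (cytosolic 3 to 8, mitochondrial 2 to 5), the time difference of the effect in A2780cis from 9 to 17, and the untreated time comparison from 5 to 15 in A2780 and 13 to 22 in A2780cis. Lower mitochondrial counts in A2780 came without untreated replicate 1 or 2 (3 each) or treated replicate 1 (2), and in A2780cis without untreated replicate 3 (3), treated replicate 2 (2) or treated replicate 3 (3). The cytosolic count in A2780cis was 4 without untreated replicate 2 and 3 without treated replicate 3. The cause was not tested.

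Within each line and time, treated and untreated libraries of the same number had correlations of -0.254 to 0.312 in their deviations from the group means. Those of unlike number had -0.326 to 0.275. Pairs across lines or times were not looked at, and groups of 3 cannot settle whether the numbers mark pairs. With the replicate block 30 and 27 members were called at 12 h in A2780 and A2780cis, with no member call lost in any comparison. SARS1 lost its 12 h call in A2780 without untreated replicate 2 or 3 or treated replicate 2 or 3, and YARS2 in A2780cis without untreated replicate 1 or treated replicate 2. Depth limits the least abundant members most, PARS2, WARS2, MARS2 and AARS2 among them.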
